A study of Mus musculus with 8 samples.

Results

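The genes described here are the transcription factor NRF2 (Nfe2l2) and its relative NRF1 (Nfe2l1), the NRF2 inhibitor KEAP1 (Keap1), the small MAF partners Mafg, Mafk and Maff, and the target genes Nqo1 and Osgin1. They were picked by gene symbol from the expression table, in which 8 of 8 were found among 54232 gene rows, and 8 of 8 passed the filter on low values. RNA was sequenced from 3 libraries of cells given C28, a compound known here by its code name only (028 in the sample names), and from 3 libraries of cells given the solvent DMSO, both at 3 h. All were labelled female germline stem cells of C57BL/6 background, and no label says whether the 3 replicates of a group were separate cultures, so every p-value speaks only of how far these libraries scatter, a scatter that may be technical. The libraries held 16930212 to 17428321 gene reads with C28 and 18613916 to 19197376 with DMSO, and the 8 genes took 0.0727% to 0.0826% of the reads with C28 and 0.0589% to 0.0600% with DMSO.

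The labelled cell type was checked against marker genes. Of 10 germline markers, Dppa3, Pou5f1 and Tfap2c had 0 reads in all 6 libraries, Ddx4 and Dazl averaged 0.669 and 0.159 normalized counts, and 2 markers (Ifitm3 and Zbtb16) averaged 10 or more. Of 11 leukocyte and mast cell markers, 8 averaged 10 or more, led by Gata2 and Kit, while Fcer1a and Tpsb2 were at 0. Ptprc averaged 7530 normalized counts, Cpa3 6750, Il1rl1 4010 and Fcer1g 1430, whereas Ms4a2 averaged 0.514. These marker levels do not bear out the germline label. Some markers differed between replicate 1 and replicates 2 and 3 in both groups, which the averages hide. Hdc was at 2.08 with C28 and 1.87 with DMSO in replicate 1, against 97.6 to 117 in the others. Il1rl1 was at 1849 and 1744 against 4632 to 5622, and Zbtb16 at 39.4 and 74.8 against 7.2 to 18.1. Gata2 showed no such shift. The summed level of the leukocyte and mast cell list was 62000 to 63000 normalized counts with C28 and 66100 to 67300 with DMSO, so the groups did not overlap. Of its markers only Gata2 lay lower in every C28 library (21760 to 22840) than in any DMSO library (24410 to 26190). That was the case for 6.49% of all genes tested. Kit, Ptprc, Cpa3, Il1rl1 and Fcer1g overlapped between the groups, so the sum does not describe the list as a whole. The 8 fibroblast and feeder markers summed to 1080 to 2640 with C28 and 1020 to 2420 with DMSO. In none of the 3 lists did a member pass the test described below, with or without a replicate block, and the part of these cells in the results was not tested.

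NRF2 is a transcription factor of oxidative and electrophile stress. In unstressed cells KEAP1 binds it and hands it to a ubiquitin ligase for destruction, and electrophiles that modify cysteines of KEAP1 let newly made NRF2 accumulate, so that NRF2 is controlled largely at the level of its protein. NRF2 binds DNA as a pair with a small MAF protein, at antioxidant response elements (AREs) near genes of glutathione, NADPH, iron and quinone metabolism. Small MAF proteins lack an activation domain of their own, and pairs of them, or pairs with BACH1, can occupy related sites as repressors.

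The promoters of the 3 members with the highest fold changes are shown because the data bear on them, with the letters of RefSeq on build GRCm38.p6, from 250 bases before to 50 bases after the start site, 5′ to 3′ on the strand of the gene. Capitals mark each match, on either strand, to TGANNNNGC, a loose form of the ARE core, or to TGANTCA, the AP-1 type of site, whose match in Osgin1 lies inside the other. Osgin1 is read at chr8:119436897-119437196 on the plus strand, Mafg at chr11:120633498-120633797 on the minus strand and Nqo1 at chr8:107403156-107403455 on the minus strand. The annotated genes span chr8:119425882-119446257 for Osgin1 and chr11:120625117-120634955 for Mafg. The start sites of their windows therefore lie inside the genes, not at their 5′ ends. The start site of the Nqo1 window is the 5′ end of its gene, chr8:107403205. Which start sites these cells use was not tested.
Osgin1: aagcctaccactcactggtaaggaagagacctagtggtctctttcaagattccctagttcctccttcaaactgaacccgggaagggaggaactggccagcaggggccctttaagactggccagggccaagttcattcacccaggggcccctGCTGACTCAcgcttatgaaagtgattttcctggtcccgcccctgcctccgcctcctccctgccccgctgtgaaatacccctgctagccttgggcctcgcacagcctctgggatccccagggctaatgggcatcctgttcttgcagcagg
Mafg: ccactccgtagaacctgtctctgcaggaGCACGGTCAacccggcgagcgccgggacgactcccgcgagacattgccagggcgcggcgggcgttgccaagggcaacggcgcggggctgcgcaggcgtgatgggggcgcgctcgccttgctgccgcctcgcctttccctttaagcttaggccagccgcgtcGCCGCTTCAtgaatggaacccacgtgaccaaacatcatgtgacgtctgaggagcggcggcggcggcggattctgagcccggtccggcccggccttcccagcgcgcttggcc
Nqo1: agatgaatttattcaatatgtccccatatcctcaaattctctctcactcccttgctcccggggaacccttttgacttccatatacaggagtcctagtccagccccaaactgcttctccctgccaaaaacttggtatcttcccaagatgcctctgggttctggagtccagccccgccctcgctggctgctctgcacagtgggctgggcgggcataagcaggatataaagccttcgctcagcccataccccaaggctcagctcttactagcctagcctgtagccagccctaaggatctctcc

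The Osgin1 window carried GCTGACTCA, which starts 99 bases before the start site used for the window. Mafg carried GCACGGTCA, which starts 222 bases before it and also matches the stricter core TGACNNNGC, and GCCGCTTCA, which starts 61 bases before it. Nqo1 had no match in this window, and the characterised ARE of the rat and human genes lies farther upstream than the window reaches. Over all 8 genes, read through 14 promoter windows, the stricter core TGACNNNGC matched in 4 windows, 1 each of Nfe2l2, Mafg, Mafk and Maff, against 12.4% of all 32851 windows. The looser TGANNNNGC matched in 11 of the 14 against 41.3% of all windows, and TGANTCA in 1 of the 14 against 7.81%. The 5 windows of Nfe2l1 overlap in part, so they share matches. A match is a description of letters, not of binding.

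Both target genes and Mafg had their C28 libraries well above their DMSO libraries, whereas Nfe2l2 and Mafk RNA did not rise. The test was limma on log2(normalized counts + 1) across 19054 genes, with Benjamini-Hochberg adjustment over all of them and a threshold of 0.05. Folds given with a log2 fold change are taken from that fit, as 2 to its power, and can differ slightly from the ratio of the printed means. In that test Osgin1 and Mafg rose, 0 members fell and 6 did not pass, while 0.121% of all genes tested rose and 0.0157% fell. Same-numbered libraries of the 2 groups, called pairs 1 to 3 by their number, deviated together, so a second limma fit that blocks on replicate number is quoted wherever it changes a call. With the block 5 members rose (Osgin1, Mafg, Nqo1, Nfe2l1 and Maff), 0 fell and 3 did not pass, against 2.55% of all genes that rose and 2.25% that fell. On the recovered reads edgeR's quasi-likelihood test made the same 2 calls (0.131% of genes rose, 0.0157% fell), and 6 members rose and 1, Nfe2l2, fell when it blocked on replicate (3.71% and 3.28% of genes). DESeq2 called 3 higher, Nqo1 the added one, and 0 lower (0.635% and 0.32% of genes). The 3 C28 libraries lay above all 3 DMSO libraries for 5 members, Nfe2l1, Keap1, Mafg, Nqo1 and Osgin1, and below them for 1, Nfe2l2, which was the case for 8.16% and 6.49% of all genes tested. In bulk RNA, fewer cells of a type and less RNA per cell cannot be told apart.

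**Figure D1:**
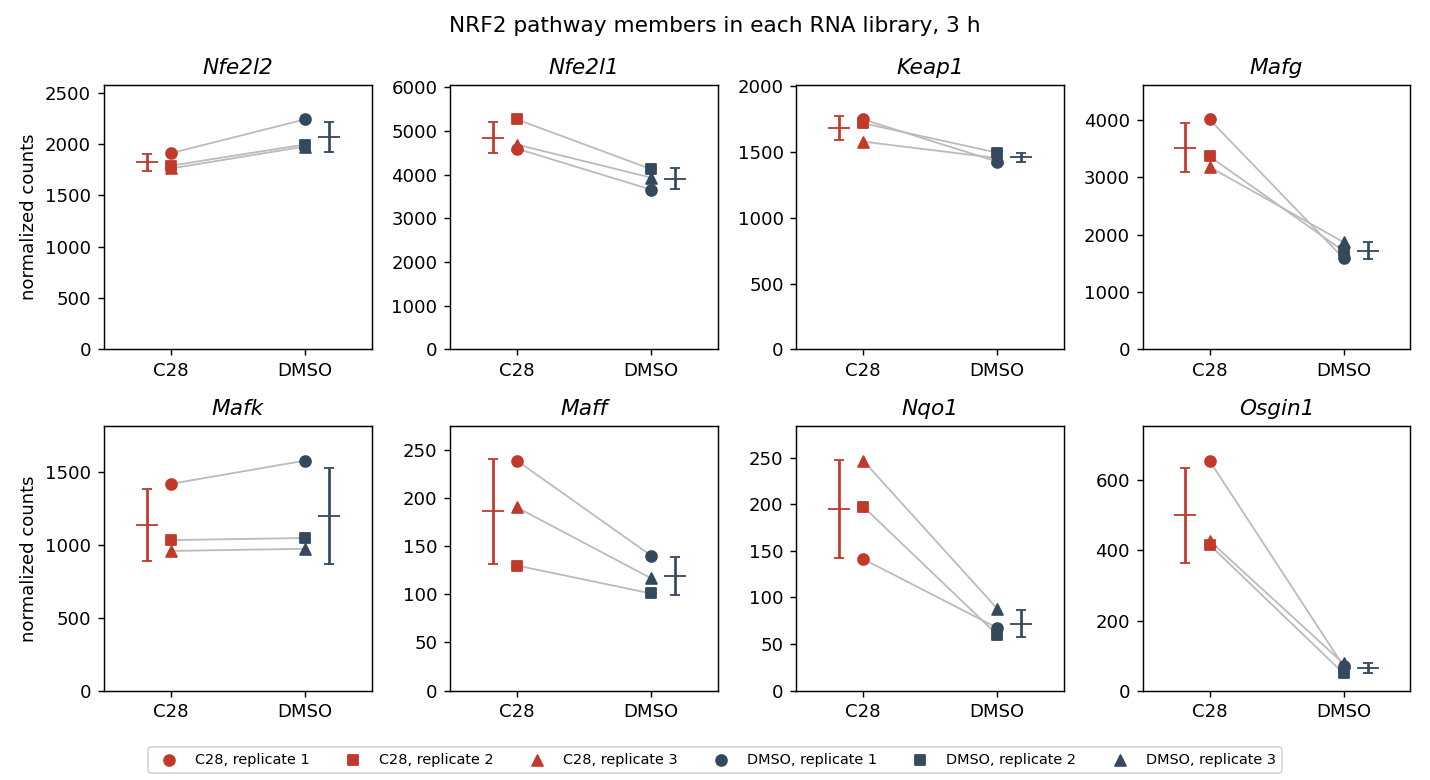
Normalized counts (vertical axis, from 0, a scale per gene) of each member in each library, C28 in red on the left and DMSO in dark blue on the right. Markers give the replicate number, grey lines join same-numbered libraries, and bars show mean ± SD (n = 3). Osgin1, Nqo1 and Mafg separate widely, the lines of Mafk are nearly flat, and Nfe2l2 slopes the other way.

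Nfe2l2, which encodes NRF2, had 1911, 1790 and 1763 normalized counts in C28 replicates 1 to 3, against 2241, 1996 and 1976 in DMSO replicates 1 to 3. Every C28 library was below every DMSO library, by a small margin. The mean was 1821 ± 79.2 with C28 and 2071 ± 147 with DMSO (SD, n = 3 each), a log2 fold change of -0.18 with a 95% confidence interval from -0.36 to -0.006 in limma. This did not pass, at an adjusted p of 0.632 without the block and 0.0631 with it in limma.

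Keap1, whose protein is the sensor that targets NRF2 for degradation, had 1745, 1716 and 1577 normalized counts with C28 against 1425, 1493 and 1452 with DMSO. All C28 libraries were above all DMSO libraries, at a log2 fold change of 0.20 with an interval from 0.041 to 0.37. It did not pass in limma either, at an adjusted p of 0.519 without and 0.0652 with the block.

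Nfe2l1 encodes NRF1, a membrane-anchored relative of NRF2 that is released to the nucleus and drives proteasome genes when the proteasome is impaired. It was at 4595, 5263 and 4687 normalized counts with C28 against 3656, 4127 and 3932 with DMSO, and the groups did not overlap. The log2 fold change was 0.31 ± 0.078 (SE), 1.24-fold, and the gene was higher in 3 of 3 pairs. It did not pass without the block (limma adjusted p 0.332) and rose with it (limma adjusted p 0.00272). That call ended without pair 2 (limma adjusted p 0.171) and without pair 3 (0.0658), at log2 fold changes of 0.29 and 0.34.

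Among the small MAF genes, Mafg stood at 4010, 3366 and 3182 normalized counts with C28 against 1588, 1715 and 1869 with DMSO. The lowest C28 library was far above the highest DMSO library. The mean was 3519 ± 434 with C28 and 1724 ± 141 with DMSO, 2.04-fold higher (log2 fold change 1.03 ± 0.10 SE, limma adjusted p 0.0196). The limma call ended without C28 replicate 2 (adjusted p 0.200), C28 replicate 3 (0.075), DMSO replicate 1 (0.0774), DMSO replicate 2 (0.151) and DMSO replicate 3 (0.0965), while the log2 fold change stayed between 0.93 and 1.09 when any 1 library was left out. With the block the Mafg call held whichever pair was left out, at limma adjusted p 0.000354, 0.0389 and 0.00149 for pairs 1 to 3. The lncRNA gene Gm17586 overlaps the 5′ end of Mafg, and whether counting used strand is not given in the sources used here. Its own level was 123 to 146 normalized counts with C28 and 70.8 to 95.2 with DMSO.

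Maff, a small MAF gene that inflammatory signals induce in human cells, was at 239, 130 and 190 normalized counts with C28 against 140, 101 and 117 with DMSO. The groups overlapped, since C28 replicate 2 was below DMSO replicate 1, but the gene was higher with C28 in 3 of 3 pairs. Its log2 fold change of 0.61 ± 0.24 (SE) did not pass without the block (limma adjusted p 0.609) and the gene rose with it (limma adjusted p 0.0225). The block call ended whichever pair was left out, at limma adjusted p 0.109 without pair 1, 0.138 without pair 2 and 0.214 without pair 3.

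Mafk, the remaining small MAF gene, was at 1416, 1031 and 957 normalized counts with C28 against 1575, 1046 and 972 with DMSO. Replicate 1 was the highest library in each group, and replicates 2 and 3 nearly matched across groups. The log2 fold change was -0.065 with an interval from -0.56 to 0.43 without the block and from -0.19 to 0.061 with it. It did not pass in limma, at an adjusted p of 0.989 without and 0.609 with the block, and its sign turned when C28 replicate 3 (0.047) or DMSO replicate 1 (0.15) was left out.

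Of the target genes, Osgin1 encodes a growth inhibitor induced by oxidative stress. It had 656, 416 and 428 normalized counts with C28 against 70.1, 49.5 and 77.5 with DMSO. The lowest C28 library was several times the highest DMSO library. The mean was 500 ± 135 with C28 and 65.7 ± 14.5 with DMSO, whose ratio is 7.61, and the fit gave a 7.47-fold rise (log2 fold change 2.90 ± 0.24 SE, interval from 2.35 to 3.45, limma adjusted p 0.00807). By log2 fold change it ranked 6 of the 19054 genes tested. The call in limma ended without C28 replicate 2 (adjusted p 0.105), C28 replicate 3 (0.0672) or DMSO replicate 3 (0.055), at log2 fold changes of 3.02, 3.00 and 3.03. With the block the Osgin1 call held whichever pair was left out, at limma adjusted p 0.000345, 0.00654 and 5.96e-05 for pairs 1 to 3. The DMSO values rest on 52 to 81 reads, and the 52 reads of DMSO replicate 2 have an exact Poisson 95% interval from 38.8 to 68.2, which covers counting error only. The lncRNA gene Gm32006, not analysed here, overlaps Osgin1.

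Nqo1 encodes a quinone reductase and is a standard reporter gene of NRF2 activity. It was at 141, 197 and 247 normalized counts with C28 against 67.3, 59.9 and 88.0 with DMSO, and the groups did not overlap. The mean was 195 ± 52.8 with C28 and 71.8 ± 14.5 with DMSO, whose ratio is 2.72, and the fit gave a 2.66-fold difference, with a log2 fold change of 1.41 ± 0.25 (SE) and an interval from 0.84 to 1.98. Without the block it did not pass in limma (adjusted p 0.143), and with the block it rose (adjusted p 0.000596). The block call ended without pair 2 (limma adjusted p 0.0609, log2 fold change 1.27). Nqo1 rests on 136 to 240 reads per C28 library and 63 to 92 per DMSO library.

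**Figure D2:**
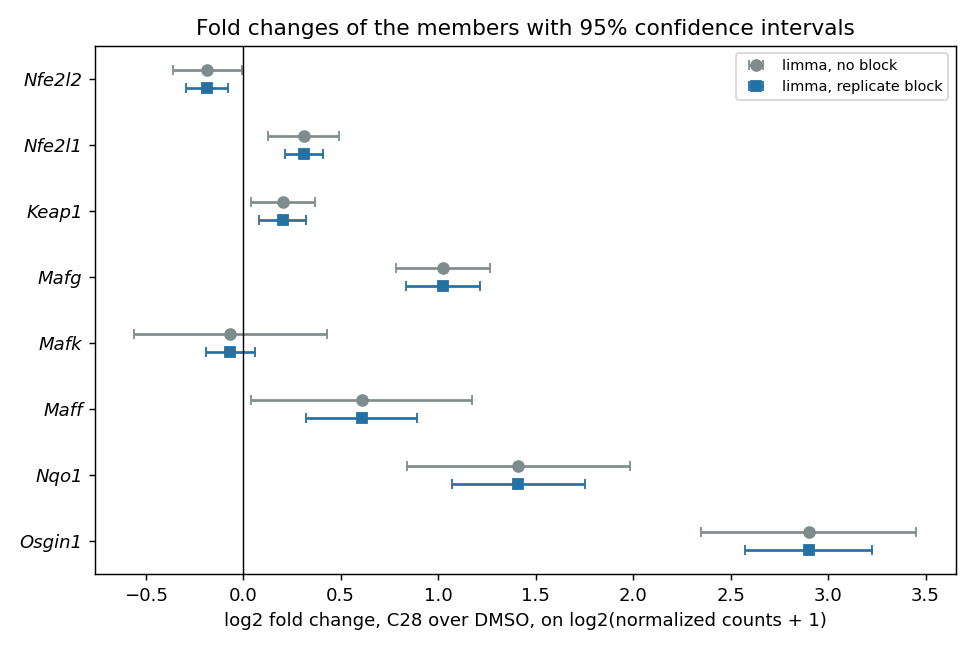
Log2 fold change of C28 over DMSO (horizontal axis) for each member with its 95% confidence interval, from limma without a block (grey circles) and with the replicate block (blue squares). The point estimates are shared by the fits, and the block narrows every interval, most for Mafk.

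Libraries of a group differed more for some members than for others. The coefficient of variation was 4.35% with C28 and 7.11% with DMSO for Nfe2l2, and 5.36% with C28 and 2.36% with DMSO for Keap1. For Mafk it was 21.7% with C28 and 27.5% with DMSO, where replicate 1 stood at 1.42 times the mean of replicates 2 and 3 with C28 and at 1.56 times it with DMSO. Across the whole table replicate 1 also stood apart in each group. Between the same-numbered libraries the C28 to DMSO ratio of Osgin1 was 9.35, 8.41 and 5.52 in pairs 1 to 3, and that of Mafg was 2.52, 1.96 and 1.70. Nqo1 gave ratios of 2.10, 3.29 and 2.80, with pair 1 the lowest, where Osgin1 and Mafg had theirs the highest. With replicate 1 left out of both groups, limma without the block gave log2 fold changes of 2.75 for Osgin1, 0.87 for Mafg and 1.59 for Nqo1.

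Whether members moved by different amounts was tested on the ratio between them in each library. The log2 ratio of Nfe2l2 to Keap1 was 0.13, 0.061 and 0.16 with C28 against 0.65, 0.42 and 0.44 with DMSO, a difference of -0.39. For Nfe2l2 to Nfe2l1 it was -1.27, -1.56 and -1.41 with C28 against -0.71, -1.05 and -0.99 with DMSO, a difference of -0.50. Both ratios were lower in every C28 library than in any DMSO library. The log2 ratio of Mafg to Mafk was 1.501, 1.706 and 1.732 with C28 against 0.012, 0.713 and 0.943 with DMSO, a difference of 1.09. Osgin1 to Nqo1 stood at 2.21, 1.07 and 0.79 with C28 against 0.058, -0.27 and -0.18 with DMSO, a difference of 1.49. These 2 ratios were higher in every C28 library. Each of the 4 gave p = 0.1 in a two-sided exact permutation test, the smallest p that 3 against 3 allows, and 0.1 after Benjamini-Hochberg adjustment over the 4, so none can pass 0.05 in this design. Transcript length was not taken into account, so the ratios say nothing of relative abundance.

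**Figure D3:**
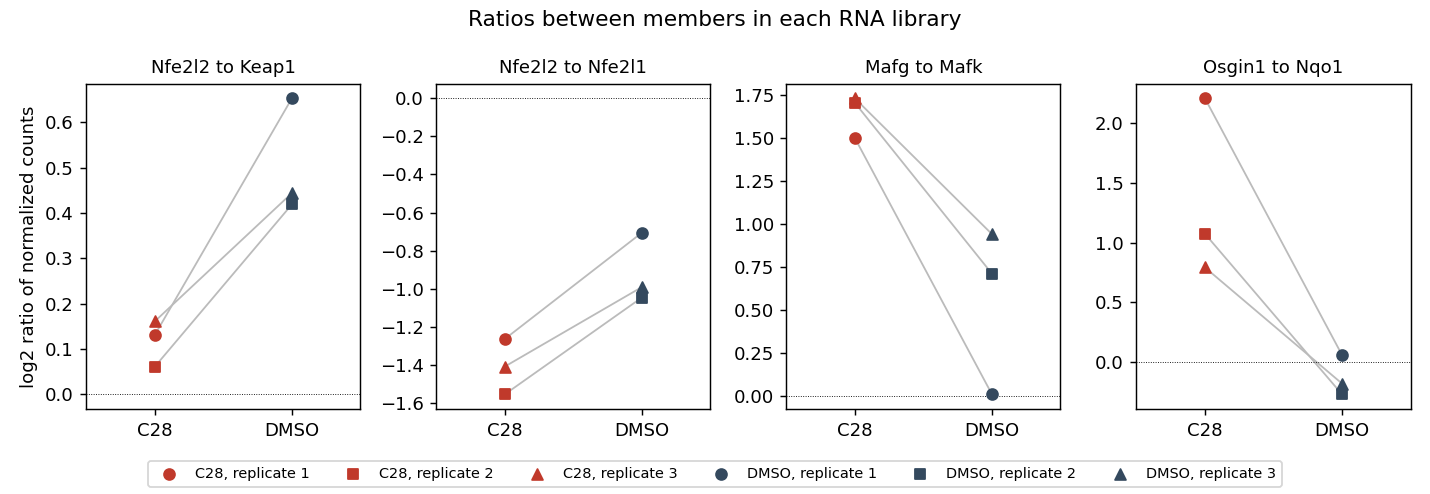
Log2 ratio of normalized counts between 2 members (vertical axis, a scale per panel) in each library, C28 in red on the left and DMSO in dark blue on the right, with lines joining same-numbered libraries. The groups are apart in each panel, downward with C28 in the ratios of Nfe2l2 and upward in those of Mafg and Osgin1.

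Lists of related genes place these values in the wider pathway. Among relatives of NRF2 and of the MAF proteins, 0 of 7 tested genes passed in limma without the block, with a median log2 fold change of -0.12 against 0.004 over all genes tested. With the block Bach1 rose and Nfe2 fell, 1 each of the 7, where 2.55% of all genes rose and 2.25% fell. Bach1 encodes a haem-sensing repressor that competes with NRF2 for small MAF partners and AREs. It had 2194, 1297 and 1265 normalized counts with C28 against 668, 690 and 749 with DMSO, a log2 fold change of 1.13 ± 0.20 (SE) with limma adjusted p 0.162 without and 0.00137 with the block. Nfe2, a partner of small MAF proteins in blood cells, had 492, 422 and 407 normalized counts with C28 against 691, 506 and 474 with DMSO, at limma adjusted p 0.714 without and 0.0438 with the block.

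In the list of 22 genes that control NRF2 turnover or act as its partners, 0 passed in limma without the block and the median log2 fold change was 0.071. Blocking on replicate gave 2 of 22 that rose and 1 that fell, beside 2.55% and 2.25% of all genes. Sqstm1, whose product p62 binds KEAP1, was 1.83-fold higher (block adjusted p 2.07e-05 in limma). Cdkn1a, the cell cycle inhibitor p21, was 1.33-fold higher (block adjusted p 0.000771 in limma). Trim21, a ubiquitin ligase that acts on p62, had 74.7, 76.2 and 97.6 normalized counts with C28 against 141, 106 and 141 with DMSO (block adjusted p 0.0396 in limma). Cul3, the scaffold of the ligase that KEAP1 serves, did not pass, at 4019 ± 191 with C28 and 3766 ± 172 with DMSO.

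Of 37 tested genes in the list of other NRF2 targets, 6 rose, 0 fell and 31 did not pass, against 0.121% of all genes that rose. With the block 20 rose and 0 fell, against 2.55% and 2.25% of all genes. Without C28 replicate 2 limma without the block called 0 of the 19054 genes, so the calls of the 6 ended too (1204 genes had an unadjusted p under 0.05). Fold changes above 0 were seen for 31 of the 37 (83.8%), against 51.0% of all genes tested, and their median on the log2 scale was 0.32. The share above 0 was 42.9% among the relatives and 63.6% in the NRF2 control list. It was 73.7% in the NRF1 and proteasome list described next, where no gene passed. The 6 were Hmox1, which breaks down haem, Srxn1, which repairs peroxiredoxins, Slc48a1, a haem transporter, Txnrd1, a thioredoxin reductase, Gclc, the catalytic subunit for glutathione synthesis, and Cat, catalase. Slc48a1 was at 5708, 5897 and 4856 normalized counts with C28 against 2535, 2916 and 2610 with DMSO (2.04-fold, limma adjusted p 0.0109). Cat was at 2859, 3251 and 2973 with C28 against 1556, 1866 and 1873 with DMSO (1.72-fold, limma adjusted p 0.0408). By log2 fold change Nqo1 would stand below Hmox1, Srxn1, Aox1 and Slc7a11 of this list. The list was drawn up with earlier results of these data known.

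For NRF1, genes of its processing and its proteasome targets were listed. Of 38 tested, 0 passed in limma without the block and 0 with it, where 0.136% and 4.8% of all genes passed in either direction. Their log2 fold changes lay between -0.12 for Psmc4, a proteasome ATPase subunit, and 0.25 for Fbxw7, a ubiquitin ligase that targets NRF1, with a median of 0.029. Of the 38, 0 lay at an unadjusted p under 0.05 in limma without the block.

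**Figure D4:**
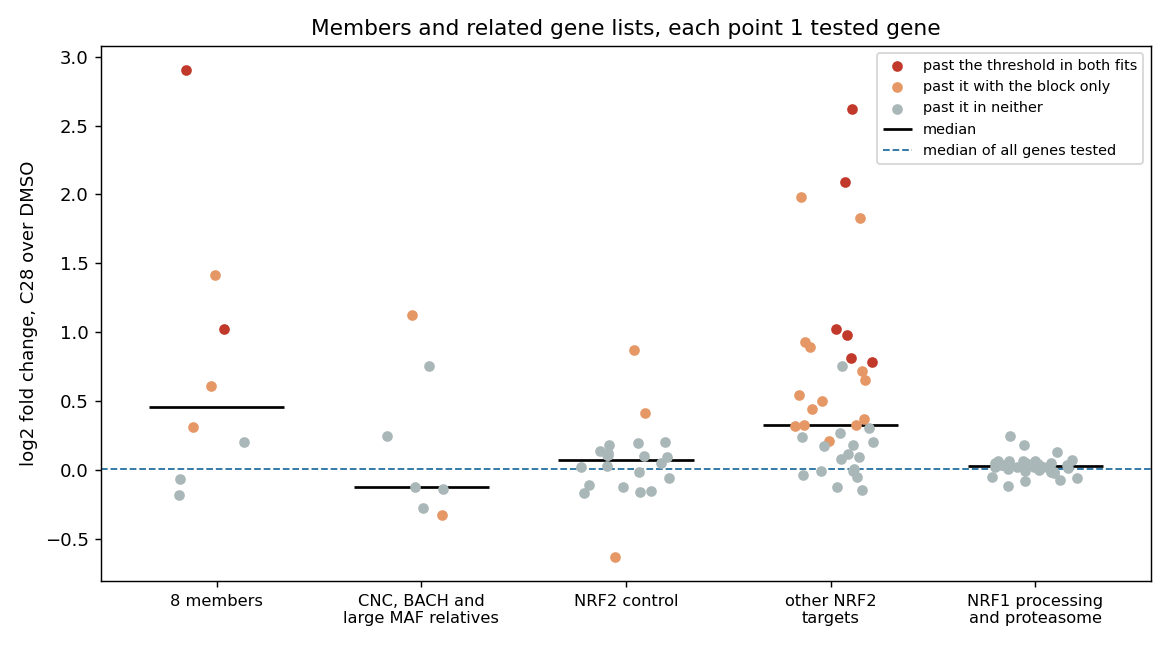
Log2 fold change of C28 over DMSO (vertical axis) for each tested gene, as points, in the 8 members and in 4 lists of related genes, with a black line at the median and a dashed line at the median of all genes tested (0.004). Red points passed the limma threshold in both fits, orange points with the replicate block only, and grey points in neither; the list of other NRF2 targets holds most of the coloured points, and the proteasome list holds none.

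Genes with the most similar profile were sought among 10571 others that averaged at least 50 normalized counts, by the root mean square difference of centred log2 values over the 6 libraries. Ranges quoted beside these distances run from the lowest to the highest library, a wider measure than a root mean square. For Osgin1 the genes were Hmox1 (0.32), Srxn1 (0.49), Procr (0.55) and Trib3 (0.60), beside a range of 3.70. Their log2 fold changes were 2.62, 2.09, 1.94 and 2.15, each below the 2.90 of Osgin1. For Mafg the most similar genes were Txnrd1 (0.045), Klf6 (0.064), Map1a (0.10) and Mir22hg (0.12), beside a range of 1.34. The closest to Nqo1 were Slc1a4 (0.28), Abca8b (0.30), Dnajb4 (0.32) and Eid3 (0.33), beside a range of 2.02. For Nfe2l2 they were Gpaa1 (0.017), Clnk (0.018), Tmem109 (0.021) and Mknk2 (0.024), beside a range of 0.35. Hmox1, Srxn1 and Txnrd1 are in the list of other NRF2 targets. The libraries share 2 groups and the same pairs, so many genes have similar profiles over 6 points, and these are descriptions only.

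The authors' deposited table carries its own fold changes for the same comparison. It lists Osgin1 at a log2 fold change of 1.60 (adjusted p 4.54e-27), Mafg at 0.86 (adjusted p 2.79e-13) and Nqo1 at 0.73 (adjusted p 5.17e-05). In the authors' deposited table the other 5 members have adjusted p from 0.0958 for Nfe2l1 to 0.999 for Mafk. Those fold changes are smaller than the ratios of the normalized counts. DESeq2 with a fold change prior, run on the recovered reads, gave values within 0.00176 of the authors' deposited table, so the deposited values are shrunken.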

How the data were processed

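The 3 C28 and 3 DMSO libraries were grouped by sample title. Per the submitters' processing notes, Bowtie2, Cufflinks 2.2.1 and the mm9 build were used, in roles not stated; the read counter is not given in the sources used here. Of the RNA kits in the labels' protocols 1 keeps strand information and 1 is not said to. The deposited values are on a signal scale, read counts per gene that the authors divided by a size factor: all (100%) were whole multiples of 1 read to within 0.01, a read being worth 1.03 to 1.07 with C28 and 0.935 to 0.957 with DMSO. The authors' deposited log2 fold changes and adjusted p-values are quoted where named.

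For a repeated gene name the row with the highest mean was used, and 19054 genes that reached 1 in 3 or more libraries entered limma 3.58.1 (R 4.3.3, trended prior variance) on log2(value + 1), which understates changes of low genes. The recovered reads went into edgeR 4.0.16 (28 genes called) and DESeq2 1.42.0 (182 called), and the fits were tested on simulated data. The simulated libraries held no replicate effect, so they cannot show how the fits behave where one is present. Deviations from group means over 10572 genes correlated at 0.845, 0.683 and 0.705 between libraries numbered 1, 2 and 3, so numbers were taken as pairs, from the data and not from a label, though C28 replicate 3 also correlated at 0.543 with DMSO replicate 2. No replicates agreed within counting noise (chi-square per gene 4.85 to 26.2).

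Members, lists and naming rules were chosen with earlier results of these data known. Named were all members, list genes past the threshold (up to 6 a list by p, with the block for relatives and NRF2 control) and the 4 most similar genes of Nfe2l2, Mafg, Nqo1 and Osgin1; Cul3, Psmc4, Fbxw7, Aox1 and Slc7a11 were added after their values were seen. The H3K27ac peak lists, on another build than the gene positions at hand, were not used here.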

Additional observations from a re-analysis of the deposited data

How the results depend on the processing

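Limma called 26 genes and 2 members. With the replicate block it called 914 genes and 5 members, and with the block in edgeR's quasi-likelihood test on recovered reads 1332 and 7. The block with replicate 1 left out of both groups gave 853 genes and 4 members, with replicate 2 left out 50 genes and 2 members, and with replicate 3 left out 207 genes and 3 members. DESeq2 called 182 genes. An alternative chosen after seeing the data, without replicate 1 of both groups and with no block, called 91. Leaving out 1 library gave 0 to 23 genes and 0 to 2 members, with 0 genes called when C28 replicate 2 was absent (limma; 1204 genes had an unadjusted p under 0.05). The pseudocount, the filter on low values and the scaling left 24 to 30 genes called.

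The direction of Osgin1, Mafg, Nqo1, Nfe2l1, Keap1, Maff and Nfe2l2 held in all 20 alternatives run. Mafk ranged from -0.236 to 0.149 when 1 library was left out, and reversed to 0.047 without C28 replicate 3 and to 0.149 without DMSO replicate 1. Adjusted p ranged from 4.25e-28 to 0.105 for Osgin1, from 4.34e-13 to 0.2 for Mafg and from 6.77e-07 to 0.633 for Nqo1. Keap1 and Nfe2l2 passed in 1 alternative, edgeR with the block (adjusted p 0.0303 and 0.0407). Without 1 library the ratio differences ranged from -0.431 to -0.314 for Nfe2l2 to Keap1, -0.568 to -0.391 for Nfe2l2 to Nfe2l1, 0.818 to 1.284 for Mafg to Mafk and 1.064 to 1.772 for Osgin1 to Nqo1. With pairs kept, exact sign flips cannot go below p = 0.25. Counted by gene, the loose ARE core matched in 7 members and the strict core in 4. Some members have several windows (Nfe2l1 5, Maff 3), so these counts cannot be set against the shares given per window. The planned peak comparisons were not run. Where calls changed, the cause was not tested.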
